A study of Mus musculus with 8 samples.

Results

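The pentose phosphate pathway enzymes were 7 genes chosen by symbol from the 53465 gene IDs of the deposited tables, of which 6, Pgls, Pgd, Rpia, Rpe, Tkt and Taldo1, are described. All 6 passed the filter on low counts, which kept 14443 genes for testing. The samples were regulatory T cells (Tregs) polarized in culture from CD4+ T cells of spleen and peripheral lymph nodes of wild-type C57BL/6 mice. Plate-bound anti-CD3 at 5 µg/mL and soluble anti-CD28 at 0.5 µg/mL activated the cells, TGF-β at 5 ng/mL and IL-2 at 100 U/mL drove polarization, and IL-4, IL-12 and IFN-γ were blocked with antibodies. At 72 hours the cultures were divided, and 4 libraries came from cells kept without drug (control) and 4 from cells given 50 µM BMS309403, an inhibitor of fatty acid-binding proteins that the study used against FABP5. The labels name no vehicle, no length of exposure and no sex or age of the mice. They do not say whether libraries of a group had separate mice or cultures as their source; the p-values rest on the spread among these libraries only, which may be technical.

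The pathway branches from glycolysis at glucose 6-phosphate. Its oxidative arm, with 6-phosphogluconolactonase and 6-phosphogluconate dehydrogenase among its enzymes, yields NADPH, the reductant for lipid synthesis and for the glutathione and thioredoxin systems, and ends in ribulose 5-phosphate. The non-oxidative arm, run by an isomerase, an epimerase, transketolase and transaldolase, makes ribose 5-phosphate for nucleotides and returns carbon to glycolysis as fructose 6-phosphate and glyceraldehyde 3-phosphate. Activated T cells are known to draw on both arms while they grow and divide. The comparison of the 2 groups asks how the inhibitor changed the mRNA levels of these enzymes.

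Total counts lay between 32.9 and 44.6 M reads in control and between 38.7 and 42.6 M reads in treated libraries. Each member had at least 1859 reads in every library. Treg markers were abundant, with Foxp3 at 950.0 ± 55.6 CPM (counts-per-million units; SD, n = 4) without drug and 1247 ± 15.3 CPM with it. The 8 Treg markers summed to between 5088 and 5668 CPM in control and between 6306 and 6662 CPM in treated libraries. The 6 myeloid markers summed to at most 6.75 CPM, the 5 CD8 and NK markers to at most 14.9 CPM (Ncr1 had no read) and the 5 red blood cell markers to at most 0.565 CPM (Hba-a2 and Hbb-bs had no read). The B cell markers summed to 343.1 to 433.4 CPM in control and 275.6 to 295.8 CPM in treated libraries, nearly all of it Ighm; without Ighm the other 4 summed to at most 7.76 CPM. Of the 8 Treg markers 4 rose and 2 fell, and of the 5 B cell markers 2 fell. Of the 4 myeloid markers that could be tested 1 fell, Adgre1, from 0.565 to 0.137 CPM (log2 fold change -2.0, edgeR adjusted p = 0.00094). The part of these cells in the results was not tested. On the second principal component, with 14.8% of the variance, replicate 1 of each group lay highest.

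Tkt, the most abundant of the 6 per length and an enzyme of the non-oxidative arm, was 1.22-fold lower under BMS309403. Pgd, Taldo1 and Rpia had lower means, and Pgls and Rpe higher means, but these 5 did not pass the threshold. In edgeR's quasi-likelihood test with Benjamini-Hochberg adjustment over all genes, 1 of 6 members was thus called lower and 0 higher, while 18.1% of all tested genes were called lower and 18.7% higher, 36.8% in all. The members' share called lower, 16.7%, was near that background. The members' median log2 fold change was -0.12, against 0.01 over all tested genes. In a fit with the replicate number as a block, all 6 members passed, 4 lower and 2 higher, where 52.4% of all genes passed (25.8% lower and 26.6% higher). In bulk RNA, fewer cells that express a gene and less RNA per cell cannot be told apart.

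**Figure D1:**
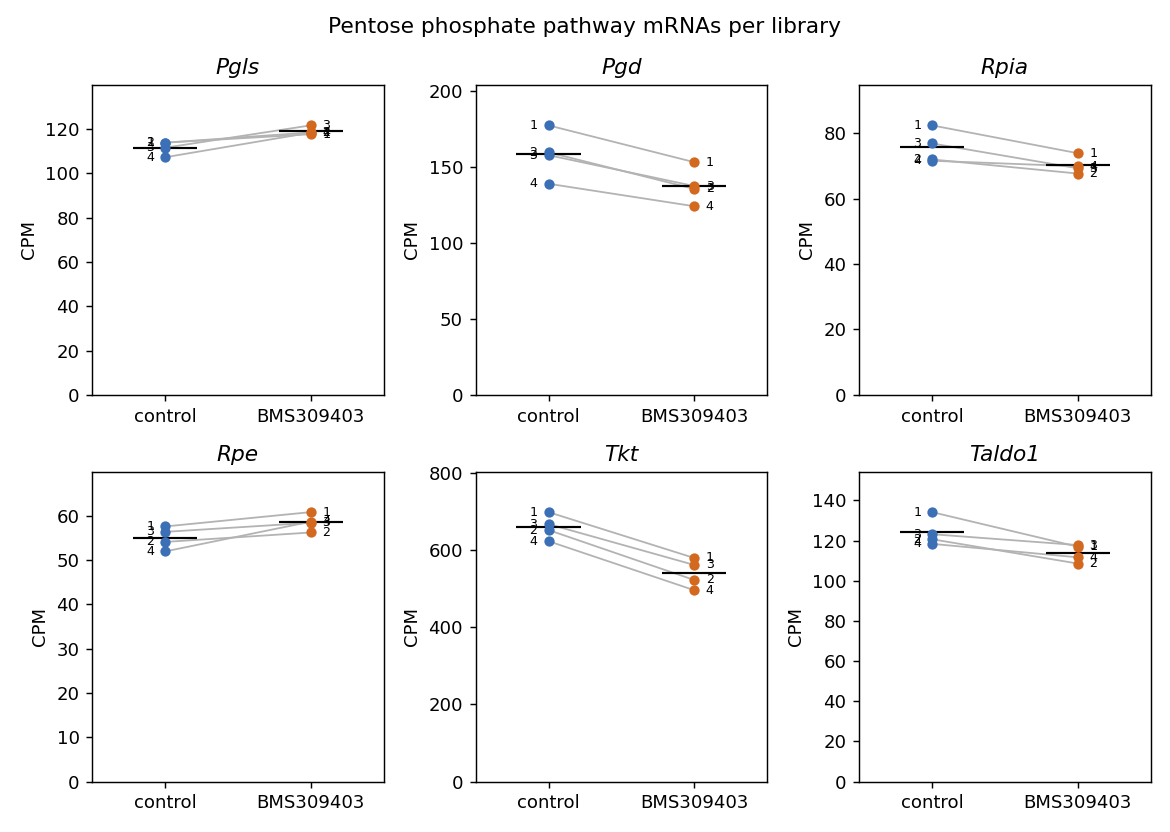
Level of each enzyme's mRNA in every library, in CPM on an axis from 0. Points are libraries with their replicate number, grey lines join libraries of the same number, and black bars are group means (n = 4). Of the 6, Tkt, Taldo1 and Pgls show no overlap between the groups, Taldo1 by a narrow margin (117.8 against 118.4 CPM).

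Pgls (ENSMUSG00000031807, chromosome 8, 71592176 to 71601092, plus strand, build GRCm38) encodes 6-phosphogluconolactonase, which opens the lactone formed at the start of the oxidative arm. It stood at 113.8, 113.8, 111.5 and 107.2 CPM in control replicates 1 to 4 and at 117.6, 118.4, 121.6 and 118.3 CPM in treated replicates 1 to 4. The treated libraries were all above the control ones. The log2 fold change was 0.09 (SE 0.04, 95% interval 0.01 to 0.17, edgeR adjusted p = 0.068), and with the replicate block the adjusted p was 0.0187. It also passed when libraries were scaled to upper quartiles (adjusted p = 0.045) or to total counts (0.0287). In 13 of 16 alternative settings Pgls did not pass, with an edgeR adjusted p of up to 0.186 (no filter on low counts).

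The exons of Pgls overlap those of a gene that rose. Fam129c, named because its exons share 776 bases with those of Pgls on the same strand, averaged 6.60 CPM in control against 16.8 CPM with the drug (log2 fold change 1.34, edgeR adjusted p = 1.07e-05). It held 3754 reads over all libraries against 36129 for Pgls. The sources used here do not say how reads in the shared bases were assigned, and their part in the higher Pgls counts was not tested.

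Pgd (ENSMUSG00000028961, chromosome 4, 149149991 to 149166771, minus strand) encodes 6-phosphogluconate dehydrogenase, which makes NADPH and ribulose 5-phosphate. Control replicates 1 to 4 stood at 177.3, 159.6, 157.7 and 138.9 CPM and treated replicates 1 to 4 at 153.1, 135.5, 137.4 and 124.1 CPM. The groups overlapped, and replicate 1 was the highest and replicate 4 the lowest library of each group. The log2 fold change was -0.20 (SE 0.08, 95% interval -0.37 to -0.04), with an adjusted p = 0.0528, just over the threshold. Each treated library was below the control library of its number, with changes of -15.1% to -10.7%, and with the replicate block the adjusted p was 3.09e-05. The call also depended on the tool: DESeq2 gave Pgd an adjusted p = 0.0398 and edgeR with RLE scaling 0.0489. Pgd passed without control replicate 4 (0.0121), without treated replicate 1 (0.0177) or without replicate 1 of both groups (0.013). In 9 of 16 alternative settings Pgd did not pass. Its edgeR adjusted p was 0.104 without control replicate 1 (log2 fold change -0.15) and 0.149 without treated replicate 4 (-0.16).

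Rpia and Rpe act on ribulose 5-phosphate where the arms meet, and their means lay on opposite sides of control. Rpia (ENSMUSG00000053604, chromosome 6, 70765720 to 70792232, minus strand), the isomerase that makes ribose 5-phosphate, stood at 82.4, 72.0, 76.9 and 71.6 CPM in control replicates 1 to 4 and at 73.9, 67.7, 69.3 and 69.9 CPM in treated ones. The groups overlapped, since control replicates 2 and 4 lay below treated replicate 1. Its log2 fold change was -0.11 (SE 0.05, 95% interval -0.22 to 0.00, edgeR adjusted p = 0.123), and with the replicate block the adjusted p was 0.0136. Without control replicate 1, its highest library, the log2 fold change of Rpia was -0.07 (adjusted p = 0.267). The longest Rpia transcript shares stretches of 201 to 395 bases, at 90% identity or more, with transcripts of 25 other genes, so that part of its count is uncertain.

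Rpe (ENSMUSG00000026005, chromosome 1, 66700831 to 66719805, plus strand), the epimerase that makes xylulose 5-phosphate, stood at 57.6, 54.1, 56.4 and 51.95 CPM in control replicates 1 to 4. Treated replicates 1 to 4 stood at 60.8, 56.2, 58.4 and 58.7 CPM. Treated replicate 2 was below control replicates 1 and 3, so the groups overlapped. The log2 fold change was 0.09 (SE 0.05, 95% interval -0.01 to 0.19, edgeR adjusted p = 0.143); the adjusted p with the replicate block was 0.0406. Without control replicate 4 the log2 fold change of Rpe was 0.06 (adjusted p = 0.317). Kansl1l, which shares 558 exon bases with Rpe on the opposite strand, rose from 11.6 to 14.7 CPM (log2 fold change 0.33, adjusted p = 0.00246). It held 4144 reads against 17758 for Rpe. As with Pgls, the part of shared bases in the count was not tested.

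Tkt (ENSMUSG00000021957, chromosome 14, 30548359 to 30574720, plus strand) encodes transketolase, a thiamine-dependent enzyme that moves carbon pairs between sugar phosphates. It stood at 698.5, 652.1, 667.4 and 623.2 CPM in control replicates 1 to 4 and at 579.7, 522.6, 561.6 and 496.2 CPM in treated replicates 1 to 4. All treated libraries lay below all control libraries, and the order of the replicate numbers was the same in both groups. The means were 660.3 ± 31.4 and 540.0 ± 37.7 CPM (SD, n = 4), with a log2 fold change of -0.29 (SE 0.06, 95% interval -0.41 to -0.17, edgeR adjusted p = 0.00178). Between same-numbered libraries the change in Tkt was -20.4% to -15.9%. Of all tested genes, 99.0% had a lower mean CPM in control than Tkt, and 31.4% had a larger absolute log2 fold change.

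Taldo1 (ENSMUSG00000025503, chromosome 7, 141392199 to 141402968, plus strand) encodes transaldolase, the partner of transketolase. Control replicates 1 to 4 stood at 134.2, 120.7, 123.2 and 118.4 CPM, and treated replicates 1 to 4 at 117.0, 108.6, 117.8 and 111.7 CPM. The groups did not overlap, but treated replicate 3 came within 1 CPM of control replicate 4. The log2 fold change was -0.13 (SE 0.05, 95% interval -0.23 to -0.02, edgeR adjusted p = 0.0597). With the replicate block the adjusted p was 0.00387, and without control replicate 4 it was 0.0389. In 14 of 16 alternative settings Taldo1 did not pass, with an edgeR adjusted p of up to 0.17 (without treated replicate 2). A processed pseudogene alike to Taldo1 (94.7% identity over 923 bases), Gm17823, had 36 reads against 37073.

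**Figure D2:**
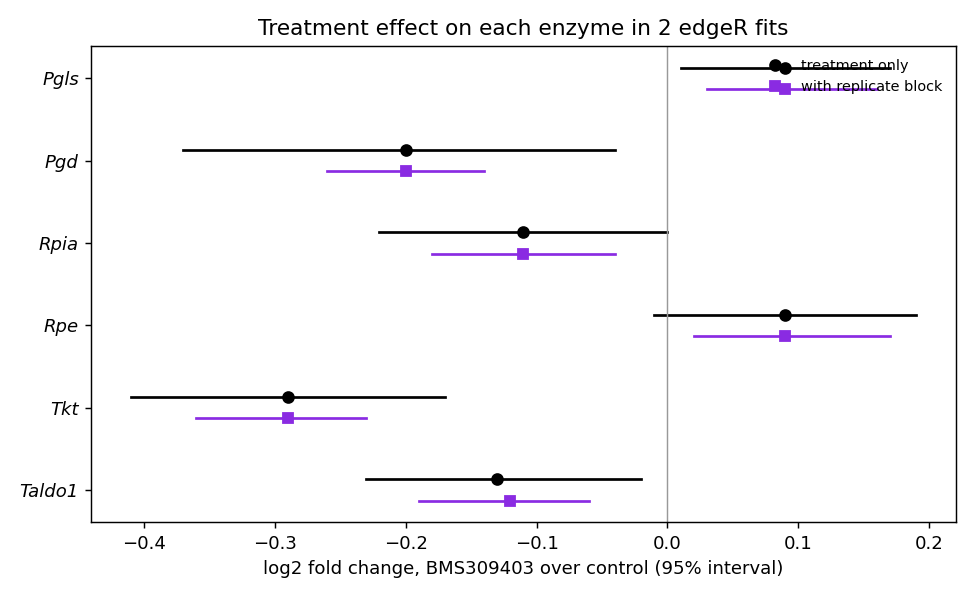
Log2 fold change of each enzyme, BMS309403 over control, with 95% intervals. Black circles are the edgeR fit on treatment alone and purple squares the fit with the replicate number as a block. The estimates differ by at most 0.01 between the fits, and the block narrows the interval most for Pgd (-0.37 to -0.04 without it, -0.26 to -0.14 with it).

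In all, the groups did not overlap for 3 of the 6 members, 2 lower (Tkt, Taldo1) and 1 higher (Pgls); the share was 33.8% of all tested genes, with 16.1% lower and 17.7% higher. Without treated replicate 1, Pgd and Rpia also parted and 4 were lower. Without treated replicate 2, Rpe parted too and 2 were higher, and scaling to total counts also gave 2 higher. Fewer libraries make parting easier for any gene, and the share of all tested genes was not computed for these settings. Every member moved the same way in 4 of 4 same-numbered pairs, which held for 59.8% of all tested genes.

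Upstream windows of 2 members are shown to set Tkt, which fell, beside Pgls, whose mean was higher. RefSeq starts (GRCm38.p6) were matched for 6 of 6 members. Each sequence is the 250 bases before the start, 5′ to 3′ on the gene's strand, with capitals for the GC box bound by SP1 (GGGCGG) on either strand. The windows are chr14:30548881-30549130 (plus strand) and chr8:71591934-71592183 (plus).
Tkt: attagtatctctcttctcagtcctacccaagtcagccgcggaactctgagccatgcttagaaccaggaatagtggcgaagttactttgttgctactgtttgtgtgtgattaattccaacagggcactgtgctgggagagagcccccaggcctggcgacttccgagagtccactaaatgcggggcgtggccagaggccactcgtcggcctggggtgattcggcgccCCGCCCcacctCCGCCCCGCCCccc
Pgls: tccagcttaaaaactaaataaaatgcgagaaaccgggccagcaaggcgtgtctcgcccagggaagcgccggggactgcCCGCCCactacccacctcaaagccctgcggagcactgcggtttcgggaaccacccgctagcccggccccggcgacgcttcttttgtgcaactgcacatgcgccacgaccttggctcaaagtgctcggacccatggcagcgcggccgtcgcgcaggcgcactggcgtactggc
The GC box occurred 3 times in the Tkt window, where 2 matches share a base, and once in that of Pgls. At least 1 GC box was found in all 6 members' windows, against 33.0% of 32536 windows of the same length. Those windows were not limited to genes expressed in these cells or matched for G and C, so the comparison sets nothing apart for this pathway. The members' windows were also rich in G and C, 54.4% to 64.4% against a median of 52.4%. The CCAAT box bound by NF-Y (CCAAT) was in the windows of Pgd and Taldo1, and in 33.8% of all. No window of the 6 members held the core of the antioxidant response element bound by NRF2 (TGACNNNGC, 10.2% of all windows), the E-box (CACGTG, 6.04%), the hypoxia response core (ACGTG, which the E-box contains, 16.7%), the sterol regulatory element (TCACNCCAC, 1.04%) or the ATF4 element (TGATGNAA, 3.4%). A match is a description of these letters only. The RefSeq start lay 772 bases from the outermost GENCODE start for Tkt and 8 bases for Pgls, so other start sites have other windows.

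Per kilobase of exon, which allows levels to be compared between genes, Tkt was the most abundant of the 6 in control, at 89.8 ± 4.27 CPM per kb (SD, n = 4). Taldo1 followed with 57.2 ± 3.23 and Pgls with 29.6 ± 0.825 CPM per kb. Pgd had 24.6 ± 2.44, Rpe 17.7 ± 0.803 and Rpia 14.1 ± 0.946 CPM per kb. No neighbours in that order overlapped across the control libraries. With the length of the longest transcript in place of the union of exons, Tkt and Taldo1 kept their ranks, while Pgd overlapped Pgls, and Rpia overlapped Rpe. In treated libraries Tkt stood at 73.4 ± 5.13, Pgls at 31.6 ± 0.478 and Pgd at 21.3 ± 1.85 CPM per kb. Tkt made up 38.6% of the 6 members' summed level per kb in control and 34.8% in treated libraries.

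Ratios within a library do not depend on how libraries are scaled. The ratio of Pgls to Pgd, the oxidative enzymes of consecutive steps, was 1.1, 1.22, 1.21 and 1.32 in control replicates 1 to 4 and 1.31, 1.49, 1.51 and 1.63 in treated ones, on the scale of CPM per kb. Treated replicate 1 lay below control replicate 4, so the groups overlapped, and the log2 ratio averaged 0.27 ± 0.11 without drug and 0.57 ± 0.13 with it (SD, n = 4). Within same-numbered pairs the Pgls to Pgd ratio was higher in the treated library in 4 of 4. The ratio of Tkt to Taldo1 lay at 1.54 to 1.6 in control and at 1.31 to 1.46 in treated libraries, without overlap. The ratio of Rpe to Rpia, the competing enzymes, lay at 1.2 to 1.29 in control and at 1.42 to 1.45 in treated libraries. Pgls and Pgd summed, over the 4 summed non-oxidative enzymes, gave 0.295 to 0.314 in control and 0.33 to 0.345 in treated libraries. The difference in the mean log2 ratio was 0.15, without overlap. Per kb, mean Pgls was higher with the drug (29.6 to 31.6 CPM) and mean Pgd lower (24.6 to 21.3 CPM). Mean Tkt (89.8 to 73.4), Taldo1 (57.2 to 52.4) and Rpia (14.1 to 13.1) were lower. Mean Rpe was higher (17.7 to 18.8). The higher ratio is therefore not a rise of both oxidative enzymes. These ratios are descriptions of chosen genes and were not tested.

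**Figure D3:**
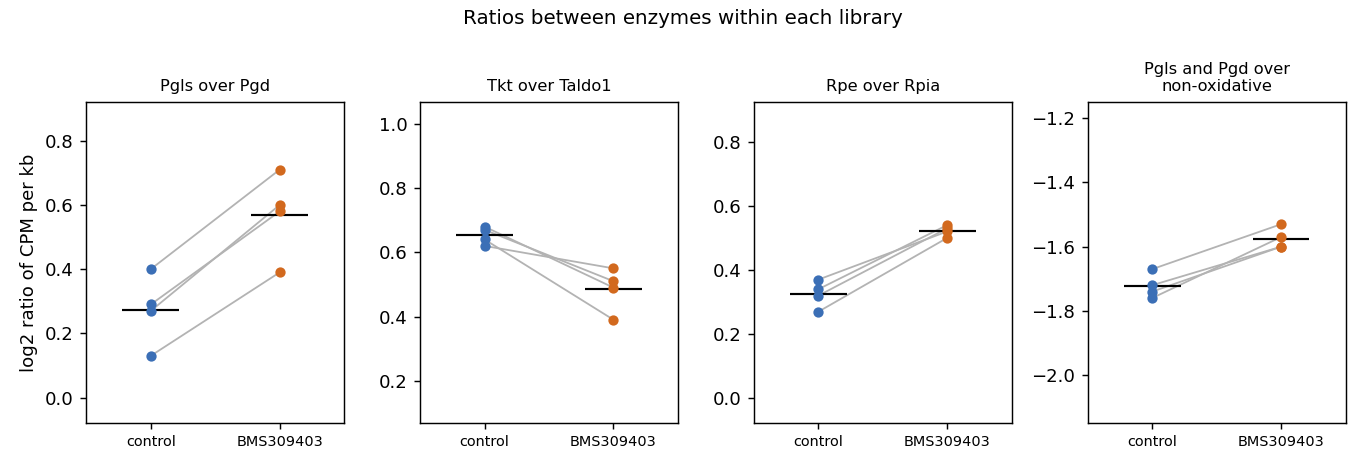
Log2 ratio between enzymes within each library, from CPM per kb of exon. Points are libraries, grey lines join the same replicate number and black bars are means (n = 4); each axis spans 1 log2 unit. The groups part for Tkt over Taldo1, Rpe over Rpia and Pgls and Pgd over the non-oxidative enzymes, and overlap for Pgls over Pgd, where each treated library lies above the control library of its number.

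The genes around the pathway were taken from lists chosen by function. Of all tested genes, 18.1% fell and 18.7% rose, and 25.8% and 26.6% with the replicate block. No list was tested against these shares. Among 12 paralogs and side enzymes, 9 could be tested, of which 4 fell (44.4%) and 1 rose (11.1%). Their median log2 fold change was -0.14, and with the replicate block 5 fell and 3 rose. H6pd, which acts at the first steps of the oxidative arm inside the endoplasmic reticulum, stood at 43.6 to 46.1 CPM in control libraries. In treated libraries H6pd stood at 35.8 to 38.0 CPM, without overlap (log2 fold change -0.27, SE 0.04, edgeR adjusted p = 0.000463). Tigar, a phosphatase that lowers glycolytic flux and is known to favour the pentose phosphate pathway, rose from 20.3 ± 2.08 to 26.6 ± 1.85 CPM (SD, n = 4; adjusted p = 0.00187). Khk, the ketohexokinase, was 1.33-fold lower (8.92 to 6.72 CPM) and Rbks, the ribokinase, 1.29-fold lower (5.69 to 4.41 CPM). The groups overlapped for Khk, with control replicate 1 at 7.28 CPM and treated replicate 4 at 7.38 CPM. The Rbks call rested on single libraries: its adjusted p was 0.0971 with control replicate 3 left out, 0.0685 and 0.0786 with treated replicate 1 or 2 left out, and 0.0667 with replicate 1 of both groups left out. The transketolase-like genes were close to silent, with 1 read for Tktl1 and 0 for Tktl2 over all libraries.

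Of 11 tested genes listed as other NADPH sources, 3 fell (27.3%, against 18.1% of all tested genes) and 2 rose (18.2%, against 18.7%). Their median log2 fold change was -0.03. The list is a loose one, since Me2 and Mthfd2 work mainly with NAD+, and NADPH itself was not measured. Me2, the mitochondrial malic enzyme, was at 340.1 ± 18.1 CPM in control and fell to 210.8 ± 14.0 CPM (SD, n = 4, adjusted p = 2.33e-06). Idh1, the cytosolic isocitrate dehydrogenase, fell from 22.1 to 13.35 CPM (1.66-fold). Of 5 folate enzymes in the list, 2 rose: Mthfd2 from 159.0 to 227.6 CPM and Aldh1l2 from 3.96 to 15.5 CPM (3.89-fold). The other 3, outside the naming rule, did not pass, with log2 fold changes of -0.03 for Mthfd1, 0.14 for Mthfd2l and -0.46 for Aldh1l1 (adjusted p = 0.798, 0.322 and 0.238). Me1, the cytosolic malic enzyme, had 63 reads over all libraries and was not tested.

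Among 22 genes that use NADPH to reduce glutathione and thioredoxin or act beside them, 12 fell (54.5%) and 2 rose (9.09%). Of all tested genes 18.1% fell and 18.7% rose. The list's median log2 fold change was -0.21. The peroxiredoxin genes Prdx5 and Prdx6 were 1.53-fold and 1.39-fold lower and Glrx, a glutaredoxin, was 1.42-fold lower. Gclc, the catalytic subunit of the rate-limiting step of glutathione synthesis, rose from 42.0 to 58.05 CPM (1.38-fold, edgeR adjusted p = 0.000285).

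Genes of PRPP, purine and pyrimidine synthesis were listed for the use of ribose 5-phosphate, though most do not act on it directly. They were lower or not called: 7 of 22 fell (31.8%, against 18.1% of all tested genes) and 0 rose (median -0.12). With the replicate block 13 fell and 4 rose, where 25.8% of all tested genes fell and 26.6% rose. The synthetase genes Prps1 and Prps2, which turn ribose 5-phosphate into PRPP, did not pass, at 137.6 ± 9.59 and 149.8 ± 8.95 CPM for Prps1 (SD, n = 4; adjusted p = 0.114) and 96.0 ± 6.17 and 88.0 ± 5.57 CPM for Prps2 (adjusted p = 0.104). With the replicate block Prps1 was higher (adjusted p = 0.00214) and Prps2 lower (0.00436). Single libraries also decided these calls. Prps1 passed without control replicate 1 (log2 fold change 0.17, adjusted p = 0.0157) and was at 0.08 without treated replicate 1. Prps2 passed without treated replicate 1 (-0.17, adjusted p = 0.0316) and was at -0.08 without control replicate 1. Without replicate 1 of both groups, both passed (adjusted p = 0.0253 for Prps1 and 0.0217 for Prps2). Hprt, which salvages purines with PRPP, was 1.39-fold lower, Paics, of purine synthesis, 1.26-fold lower, and Adss, an adenylosuccinate synthase, 1.17-fold lower. Its relative Adssl1 had the largest fall of the list, from 25.02 to 4.84 CPM.

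Of upper glycolysis, from glucose entry to the return points of the pathway, 14 of 17 tested genes were lower (82.4%) and 0 higher. Of all tested genes 18.1% were lower and 18.7% higher. The list's median log2 fold change was -0.32, and with the replicate block 14 were lower and 1 higher. Whether that list differs from the members was not tested. Aldoc, an aldolase, was 1.94-fold lower and Slc2a3, a glucose transporter, 1.73-fold lower. Tpi1, which interconverts the triose phosphates, was at 1561 ± 133.5 CPM in control and fell to 1079 ± 161.9 CPM (SD, n = 4, adjusted p = 0.00156). Gpi1, which interconverts glucose 6-phosphate and fructose 6-phosphate, was 1.38-fold lower (1295 to 938.4 CPM).

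Of 18 known regulators of the pathway, 10 rose (55.6%, against 18.7% of all tested genes) and 2 fell (11.1%, against 18.1%). Their median log2 fold change was 0.14. The list mixes activators with genes that restrain the pathway, and both kinds are among the 10 that rose. Its count thus gives no direction for the pathway. Myc, which drives anabolic genes, rose from 315.6 ± 46.3 to 455.5 ± 39.5 CPM (SD, n = 4; adjusted p = 0.000852). Atf4, of the integrated stress response, rose 1.43-fold and Hif1a, the oxygen-regulated factor, rose 1.26-fold. Srebf1, the activator of lipid synthesis genes, was 1.45-fold lower.

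**Figure D4:**
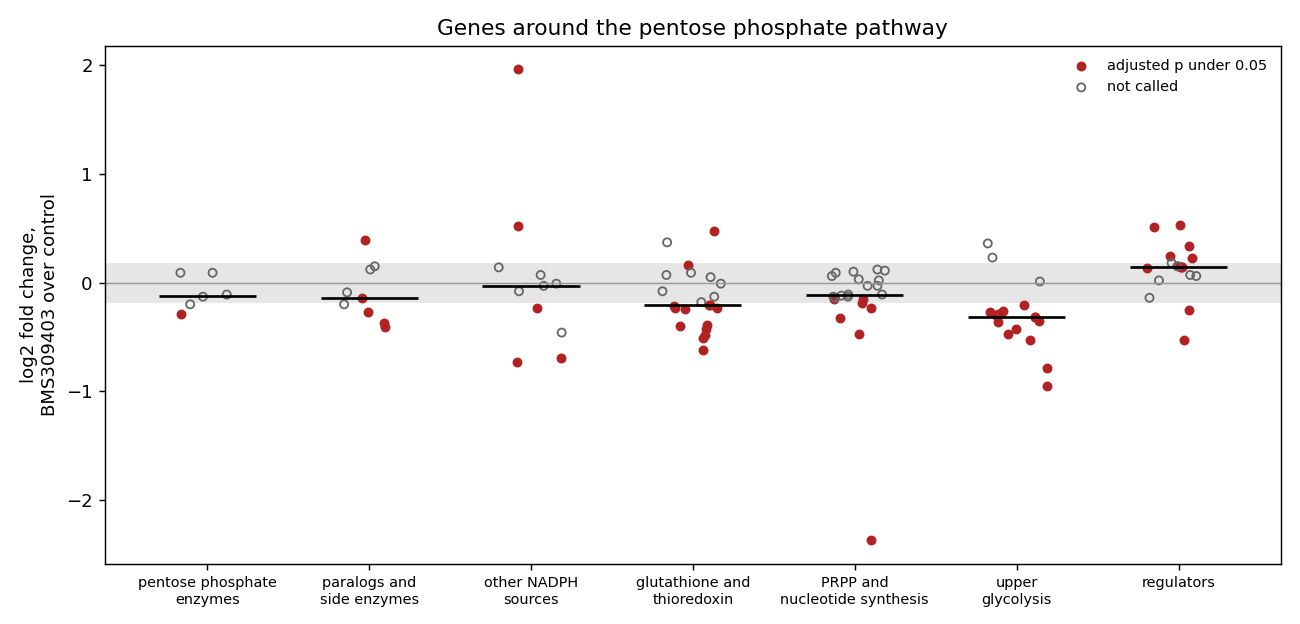
Log2 fold change, BMS309403 over control, of every tested gene in the members' list and 6 lists around it. Filled red points passed an adjusted p of 0.05, open points did not, black bars are list medians, and the grey band holds the middle of all tested genes (quartiles -0.17 and 0.17). The members' median is -0.12, that of upper glycolysis -0.32 and that of the regulators 0.14.

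For each member, the gene with the most alike profile was sought among 9505 other named genes of at least 5 CPM, by the mean absolute difference in log2 CPM over the 8 libraries after each gene was centred on its mean. For Tkt it was Ndufb3, a complex I subunit (difference 0.0154, against a median of 0.166 over all genes compared), and for Pgd it was Hmgn2, a nucleosome-binding protein (0.0192). For Taldo1 it was Ube2d2a, a ubiquitin-conjugating enzyme (0.0118), and for Rpia it was Usp10, a deubiquitinase (0.0124). Pgls was most like Lias, the lipoic acid synthetase (0.00875), and Rpe most like Ndufaf7, a complex I assembly factor (0.0159). The treatment difference is part of each profile, so a like profile means a like change as well as like spread. Each value is the smallest of 9505 differences, so its place below the median follows from the search and shows no special link.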

How the data were processed

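RNA of 8 libraries (4 control, 4 treated) was extracted with a column kit and made into stranded poly(A)-selected libraries for an Illumina HiSeq, per the labels' protocols. The deposited values are raw counts of reads per Ensembl gene, not normalized by the authors. The submitters' processing notes name STAR, featureCounts, DESeq2, deepTools and GRCm38; versions, roles, annotation release and the strand setting are not given in the sources used here. Symbols and exon lengths came from GENCODE M21, and 53360 of 53465 IDs had a symbol; of IDs that share a symbol, the one with the most reads was used.

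Counts were tested with edgeR 4.0.16 (R 4.3.3) using its quasi-likelihood test, filterByExpr and TMM normalization, with treatment alone in the model (6 residual degrees of freedom) and Benjamini-Hochberg adjustment over 14443 genes at a threshold of 0.05. Adjusted p-values in the text come from this test unless another is named. CPM are counts-per-million values on the TMM-adjusted library size. SEs were computed from F statistics, and 95% intervals used the moderated degrees of freedom (11.8). Scripts were tested on simulated data.

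Same-numbered libraries of the 2 groups deviated together, with correlations of 0.384, 0.145, 0.106 and 0.264 across genes, all above 0.1. On that ground equal numbers were treated as pairs in the replicate block and in comparisons of same-numbered libraries. The main test ignored the numbers, so its adjusted p-values take no account of such pairs. The labels name no such pairing. With a prior count of 0.5 in place of 2, replicate 3 gave 0.09. Treated replicate 2 correlated better with a control library of another number than with its own; the other 7 libraries correlated best with their own. Within groups, libraries differed beyond sampling noise (chi-square per degree of freedom 3.08 to 24.2). Alternatives were the replicate block, other scalings, no filter, DESeq2 1.42.0, limma-voom (limma 3.58.1) and leaving out libraries. Transcripts alike to the members' were sought with blastn 2.17.0+ (at least 90% identity over 200 bases). Motifs were searched in RefSeq windows.

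1 member and 2 genes of the lists are not reported here, and counts over members and lists leave them out. The members, lists and tests were chosen with earlier results of these data known. Named genes are the members, H6pd, Tigar, Prps1 and Prps2, in each list the up to 4 called genes with the largest change, and the nearest profile of each member. Fam129c, Kansl1l, Gm17823, Tktl1, Tktl2 and Me1 fall outside this rule; they were named for overlap, likeness or lack of reads. Adgre1, Il2ra, Ikzf2, Tnfrsf18, Cd3e, Cd3g, Mthfd1, Mthfd2l and Aldh1l1 were named after their values were seen.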

Additional observations from a re-analysis of the deposited data

Results flagged for a closer look

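A library far from the other 3 of its group was found in 3 of 64 groups checked (32 named genes in 2 groups), and chance flags about 1 in 20; none was a group of a pentose phosphate enzyme. For Tpi1, treated replicate 4 was at 839.5 CPM against 1124 to 1180 in the other treated libraries. For Myc, control replicate 1 was at 384.4 CPM against 283.3 to 298.0 in the other control libraries. For Atf4, treated replicate 1 was at 430.2 CPM against 466.5 to 473.8 in the others.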

How the results depend on the processing

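Tkt (log2 fold change -0.33 to -0.25) stayed lower and past the threshold in all 16 alternatives, and no member changed direction in any. The number of members called was 1 lower and 0 higher. With the replicate block it was 4 lower and 2 higher; with RLE scaling, no filter on low counts or DESeq2, or without replicate 1 of both groups, 2 were lower; with upper-quartile scaling, and with scaling to total counts, 1 was higher. Leaving out a library gave 1 to 3 lower and 0 higher (3 without control replicate 4, 2 without treated replicate 1). For all tested genes, 2694 were higher and 2617 lower; the block gave 3845 and 3728, and leaving out libraries gave 2078 to 3085 higher and 2007 to 3088 lower. Scaling to total counts gave 2946 higher and 2365 lower.

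Members with no overlap between groups were 2 lower and 1 higher; 2 were higher with total counts and 1 was lower with upper-quartile scaling. Leaving out a library gave 2 to 4 lower and 1 to 2 higher. Leaving out replicate 1 of both groups, chosen after seeing the data, gave 4 lower. Leaving out libraries makes parting easier for any gene, and no share of all tested genes was computed beside these counts. The treated-minus-control log2 ratio of Pgls and Pgd to the non-oxidative enzymes was 0.15, 0.16 with the longest transcript as gene length, and 0.13 to 0.16 with a library left out. Of 32 other named genes, 26 kept their direction and side of the threshold in all alternatives, 2 lost a call in some (Rbks, and Ube2d2a with an adjusted p up to 0.121), 4 gained a call in some and 0 reversed. Apart from the values above, the cause of these changes was not tested.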
